A study of Homo sapiens with 4 samples.

Results

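The cytosolic chaperonin CCT, also called TRiC, was examined through the mRNAs of its 8 subunits, TCP1, CCT2, CCT3, CCT4, CCT5, CCT6A, CCT7 and CCT8, in TE5 cells depleted of NUP153. The members are the rows of the deposited count table whose gene symbol equals one of these names. All 8 were found, each as 1 row, among 56612 gene IDs, and all 8 passed the filter on low counts that left 16817 tested genes. The family was singled out with the difference between the groups already known, CCT8 in particular. The values of that difference are therefore given as a description, and no test of the subunits is drawn from them.

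RNA sequencing covered 4 libraries of TE5, an established esophageal squamous cell carcinoma line. Of these, 2 came from cells carrying short hairpin RNA against NUP153 (shNUP153, labelled as NUP153 knockdown) and 2 from cells carrying a control hairpin (shControl, labelled WT). Both groups were infected with lentivirus, selected with puromycin and sampled at day 7 of further growth. Separate infections or cultures are not stated for the replicates. The p-values therefore cover only library-to-library spread, which may be technical. It is not stated either whether 1 hairpin or different ones were used for the shNUP153 libraries. Loss of NUP153 and any other effect of the hairpins cannot be told apart in this design.

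The shNUP153 libraries held 25247932 and 23396626 counts and the shControl libraries 22606593 and 27396268. NUP153, a nucleoporin of the nuclear basket and the target of the hairpins, stood at 67.9 and 81.9 CPM (read counts divided by TMM-adjusted library size) in shNUP153, against 148.9 and 141.6 CPM in shControl, which is −0.96 ± 0.062 (SE) as a log2 fold change, with an adjusted p of 1.051e-14 by edgeR's quasi-likelihood test. Of 10 squamous and epithelial markers 9 were high enough to test, and these differed between the groups in both directions. At an adjusted p under 0.05, 5 were lower and 2 higher in shNUP153, beside 17.4% lower and 15% higher over all tested genes. EPCAM (−1.02), KRT5 (−0.68), CDH1 (−0.63), SOX2 (−0.34) and KRT6A (−0.23) were lower on the log2 scale, and KRT17 (0.76) and KRT18 (0.23) were higher, with the call for KRT6A lost under 4 alternatives. TP63 (235 ± 4.99 CPM in shNUP153 and 248 ± 3.14 CPM in shControl, SD, n = 2 each) and KRT8 did not pass. KRT14 had a mean of 0.39 CPM in each group. Of 8 markers of blood, stromal and endothelial cells 6 were too low to test, and the other 2, VWF and COL3A1, averaged 2.003 and 0.384 CPM in shNUP153 and 1.16 and 0.383 CPM in shControl. At this low level VWF was called higher in shNUP153 (log2 fold change 0.76, edgeR adjusted p = 0.0431), a call lost with DESeq2 (adjusted p = 0.19).

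CCT is a double ring in which each of its subunits, all related ATPases encoded by separate genes, holds a fixed place in each ring. The complex encloses newly made proteins that fold poorly on their own, above all actin and tubulin, together with many WD40-repeat proteins of the cell cycle and of signalling. In the complex the subunits are used in equal number, and the mRNAs were compared on that footing.

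The stretch before the start of 4 of these genes is shown for CCT8, the subunit that stood apart in the count data, and for TCP1, CCT2 and CCT3, whose RefSeq promoters held the same pair of motifs. Capitals mark matches on either strand to CCAAT (the CCAAT box), GGGCGG (the GC box), CCGGAAG (an ETS factor motif) and GAANNTTC or TTCNNGAA (the core of a heat shock element), and each line gives the 250 bases before the RefSeq start, 5′ to 3′ on the gene's strand, in GRCh38.p14. The windows are chr21:29073649-29073898 on the minus strand for CCT8, chr6:159789603-159789852 on the minus strand for TCP1, chr12:69585209-69585458 on the plus strand for CCT2 and chr1:156338293-156338542 on the minus strand for CCT3.
CCT8: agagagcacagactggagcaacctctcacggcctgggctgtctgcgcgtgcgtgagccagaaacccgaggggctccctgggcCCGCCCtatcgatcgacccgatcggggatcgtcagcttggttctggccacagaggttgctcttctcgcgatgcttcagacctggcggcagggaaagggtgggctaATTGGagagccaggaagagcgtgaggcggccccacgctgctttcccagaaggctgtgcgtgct
TCP1: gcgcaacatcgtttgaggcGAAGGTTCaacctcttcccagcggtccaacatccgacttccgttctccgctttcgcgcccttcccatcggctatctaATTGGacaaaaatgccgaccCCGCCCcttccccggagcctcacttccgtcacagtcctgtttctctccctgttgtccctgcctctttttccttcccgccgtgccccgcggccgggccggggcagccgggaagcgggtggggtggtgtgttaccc
CCT2: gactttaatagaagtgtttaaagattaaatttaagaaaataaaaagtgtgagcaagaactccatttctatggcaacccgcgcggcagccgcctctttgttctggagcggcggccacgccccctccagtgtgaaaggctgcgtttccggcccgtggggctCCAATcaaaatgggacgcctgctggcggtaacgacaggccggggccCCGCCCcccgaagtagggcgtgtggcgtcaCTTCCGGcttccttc
CCT3: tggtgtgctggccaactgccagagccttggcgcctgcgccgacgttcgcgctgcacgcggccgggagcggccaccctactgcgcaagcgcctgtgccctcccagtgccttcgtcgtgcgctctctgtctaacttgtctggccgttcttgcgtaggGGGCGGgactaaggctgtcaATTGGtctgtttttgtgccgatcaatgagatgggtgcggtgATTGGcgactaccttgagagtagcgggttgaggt

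A window was found for 7 of the 8 genes (not for CCT6A). A CCAAT box was present in 4 of these 7, namely CCT8, TCP1, CCT2 and CCT3, against 32.0% of all 35116 promoter windows of the same length. The same 4 held a GC box, which occurred in 42.6% of all windows. CCT8 had 1 CCAAT box, 59 to 63 bases before the start, and 1 GC box, 163 to 168 bases before it. TCP1 alone held the heat shock element core (11.6% of all windows) and CCT2 alone the ETS motif (8.5%). No window of the 7 held the E-box CACGTG (6.3% of all). These matches are letters in a window and not mapped sites. The RefSeq starts lie 125 to 173 bases from the start of the principal GENCODE transcript for the 4 printed genes, and 616 bases from it for CCT5. These distances were taken without direction, so part of a printed window, with its motifs, may lie within the principal transcript. The CCT5 window includes coding sequence of the gene. Its lack of these motifs therefore does not describe the stretch before the start of the principal CCT5 transcript. The C+G content was 64.0% for CCT8 and between 56.8% and 63.2% for the other 6, against a median of 58.0% over all windows.

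CCT8 (ENSG00000156261, chromosome 21), the theta subunit, was the subunit with the largest difference between the groups. It measured 129.7 and 141 CPM in the shNUP153 libraries, against 293 and 285 CPM in the shControl libraries. Both shNUP153 values lay below both shControl values, and the gap between the groups exceeded the gap between replicates. The means were 135 ± 7.98 CPM in shNUP153 and 289 ± 5.64 CPM in shControl (SD, n = 2 each), 2.13-fold lower in shNUP153, with a log2 fold change of −1.09 (SE 0.050). These were based on 3365 and 3346 reads in shNUP153 and on 6492 and 7590 in shControl. At 3346 reads the counting error alone is 1.73% of the value. Ranked from the most negative log2 fold change, CCT8 was number 138 of the 16817 tested genes, ahead of NUP153 itself at number 222. In bulk RNA, fewer cells with the transcript and less transcript per cell cannot be told apart.

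The other 7 subunits were lower by 1.04-fold to 1.21-fold in shNUP153, where total-count scaling turned the direction for TCP1 and CCT6A. CCT2 (ENSG00000166226, chromosome 12), the beta subunit, came next to CCT8 with 194 and 204 CPM in shNUP153, against 240.45 and 239 CPM in shControl (log2 fold change −0.27, SE 0.047). CCT4 (ENSG00000115484, chromosome 2), the delta subunit, measured 306 and 307 CPM in shNUP153 and 351 and 355 CPM in shControl (−0.20, SE 0.044). CCT5 (ENSG00000150753, chromosome 5), the epsilon subunit, measured 851 and 845 CPM in shNUP153 and 968 and 971 CPM in shControl (−0.19, SE 0.041). For each of these 3 the shNUP153 libraries lay below the shControl libraries by more than replicates differed, while the fold remained between 1.14 and 1.21 lower.

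CCT3 (ENSG00000163468, chromosome 1), the gamma subunit, stood at 516 and 508 CPM in shNUP153, against 565 and 556 CPM in shControl (−0.13, SE 0.043). CCT7 (ENSG00000135624, chromosome 2), the eta subunit, stood at 488 and 493.5 CPM in shNUP153, against 526 and 539.6 CPM in shControl (−0.12, SE 0.043). These 2 differences were under 1.1-fold, with no overlap between the groups. TCP1 (ENSG00000120438, chromosome 6), the alpha subunit, measured 381 and 389 CPM in shNUP153 and 390.2 and 413 CPM in shControl (−0.06, SE 0.045). CCT6A (ENSG00000146731, chromosome 7), the zeta subunit of most tissues, measured 721 and 749 CPM in shNUP153 and 765 and 759 CPM in shControl (−0.05, SE 0.042). For TCP1 the gap between the nearest libraries of the groups was narrower than the gap between replicates of either group. For CCT6A it was narrower than the gap between the shNUP153 replicates but wider than that between the shControl replicates. With total-count scaling the log2 fold changes of TCP1 and CCT6A changed sign to 0.002 and 0.01.

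**Figure D1:**
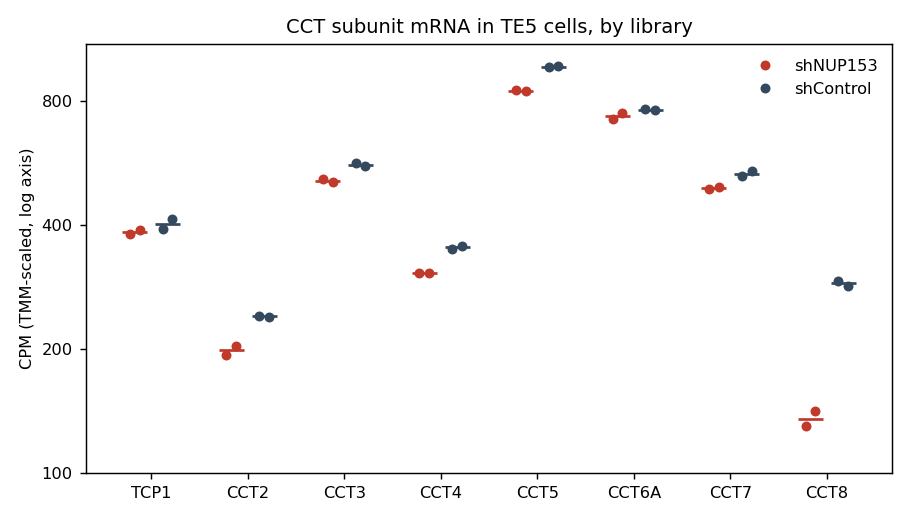
CPM of each CCT subunit (log axis) in the 2 shNUP153 and the 2 shControl libraries, as points, with the group mean as a line. CCT8 sits at 129.7 and 141 CPM in shNUP153 and at 293 and 285 CPM in shControl, while the groups of the other 7 subunits lie close together.

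The fit across all genes put 6 of the 8 subunits past an adjusted p of 0.05, all lower in shNUP153 (CCT8, CCT2, CCT4, CCT5, CCT3 and CCT7), and 2 not (TCP1 and CCT6A). Over all tested genes 17.4% were called lower and 32.4% were called in either direction. For all 8 subunits both shNUP153 libraries lay below both shControl libraries, as they did for 32.2% of tested genes (64.4% without overlap in either direction). Since the subunits were chosen on this comparison, nothing is read from these counts. The 5 calls beside CCT8 rest on small differences. CCT3 and CCT7 missed the threshold without shNUP153 replicate 1, without shNUP153 replicate 2, and with total-count or upper-quartile scaling. CCT7 also missed it without shControl replicate 2 and among genes with a mean of at least 5 CPM.

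The subunits were then set against one another. The log2 fold changes of the other 7 ran from −0.27 to −0.05, a range of 0.22 with a median of −0.13. CCT8 lay 0.96 below that median. Within libraries, the log2 CPM of CCT8 minus the mean log2 CPM of the other 7 was −1.78 and −1.68 in shNUP153 and −0.76 and −0.81 in shControl. This within-library measure does not depend on scaling between libraries, and the gap between its groups exceeded the gap between replicates. The authors' deposited table, whose ratio was not scaled to library size, gives CCT8 a log2 ratio of −1.07, and gives the other 7 ratios from −0.25 for CCT2 to −0.03 for CCT6A.

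**Figure D2:**
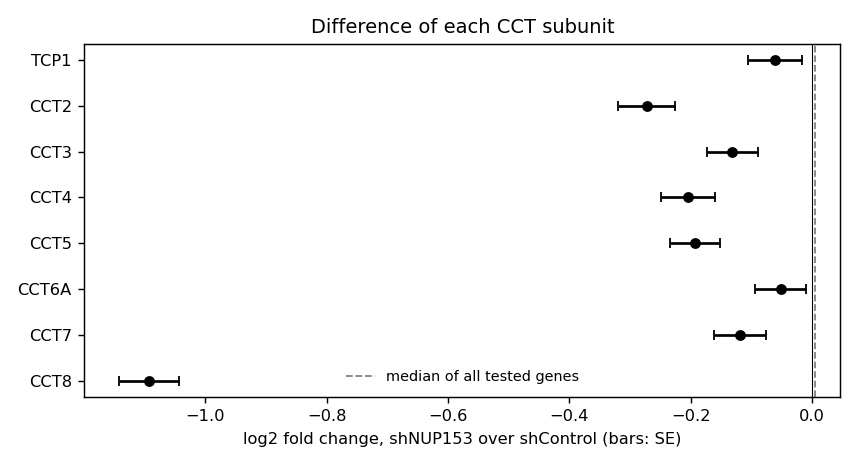
Log2 fold change of each subunit, shNUP153 over shControl, with bars of 1 SE; the dashed line is the median of all tested genes (0.01). CCT8 lies at −1.09 and the other 7 between −0.27 and −0.05.

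Levels were then compared between subunits per length, as CPM per kilobase of the principal GENCODE transcript. In shNUP153 the order from high to low was CCT6A, CCT7, CCT3, CCT5, TCP1, CCT4, CCT2 and CCT8, and no neighbours in it had overlapping libraries. In shControl it was CCT6A, CCT7, CCT5, CCT3, TCP1, CCT8, CCT4 and CCT2, with overlapping libraries only for CCT6A and CCT7. CCT8 thus stood eighth in shNUP153, at 64.7 and 70.3 CPM per kilobase, and sixth in shControl, at 146 and 142. CCT6A, the highest, stood at 265 and 275.5 CPM per kilobase in shNUP153 and 281 and 279 in shControl.

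The mRNAs of the ring were unequal in both groups. The highest subunit exceeded the lowest 4.10-fold and 3.92-fold in the shNUP153 libraries and 2.39-fold and 2.40-fold in the shControl libraries. Without CCT8 these ratios were 2.80 and 2.76 in shNUP153 and 2.39 and 2.40 in shControl. Of the summed level of the 8 subunits, CCT8 made up 4.54% and 4.86% in shNUP153 and 8.89% and 8.61% in shControl, where equal levels would give 12.5%. The share of CCT6A was 18.8 ± 0.298% in shNUP153 and 17.04 ± 0.144% in shControl, and that of CCT5 was 16.1 ± 0.242% in shNUP153 and 16.04 ± 0.0299% in shControl (SD, n = 2 each). Shares are parts of one sum, so a lower share of CCT8 goes with higher shares elsewhere. The level of CCT6A itself averaged 270 CPM per kilobase in shNUP153 and 280 in shControl. The order depends on which length is used. Per kilobase of coding sequence, CCT5 was the highest in both groups (its principal transcript has 3675 bases, of which 1626 are coding), and CCT8 remained the lowest in shNUP153 with 3.70% of the sum, against 6.94% in shControl.

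**Figure D3:**
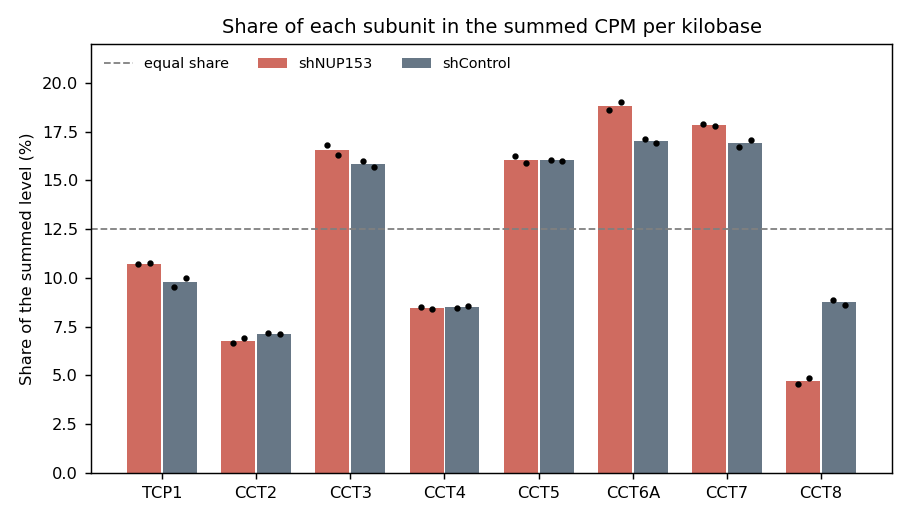
Share of each subunit in the summed CPM per kilobase of transcript of the 8 subunits, in percent; bars are group means, points the 2 libraries of each group, and the dashed line an equal share of 12.5%. The CCT8 bar is at 4.70% in shNUP153 and 8.75% in shControl. The CCT6A bar is at 18.8% in shNUP153 and 17.04% in shControl. Shares are parts of one sum and do not show the direction of a subunit's own level.

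The subunits' transcripts are distinct enough to be counted apart from one another: no run of 31 bases was shared between the principal transcripts of 2 subunits. Some runs were shared with pseudogenes or with genes on the opposite strand, and the sources used here do not give the authors' treatment of these or say whether strand was used. For CCT8, 23.4% of its 31-base runs also occur in the pseudogene CCT8P1, to which the table assigns 8 and 10 counts in shNUP153 and 8 and 14 in shControl. CCT6A shares 18.1% of its runs with its pseudogenes, led by CCT6P3 (69 and 68 counts in shNUP153, 58 and 82 in shControl) and CCT6P1 (132 and 143 in shNUP153, 86 and 160 in shControl). CCT2 and CCT3 share none. For CCT5, 47.4% of the runs lie in AC012640.4, annotated on the opposite strand, which had 1 to 3 counts per library. TCP1 overlaps the 3′ part of ACAT2, a cytosolic thiolase gene on the opposite strand, over 558 bases. ACAT2 had 544 and 532 counts in shNUP153 and 656 and 838 in shControl, beside 9876 and 9234 for TCP1 in shNUP153 and 8655 and 11011 in shControl. Scaled to library size, ACAT2 was lower in shNUP153 (log2 fold change −0.49, SE 0.082, edgeR adjusted p = 1.11e-05). CCT3 overlaps TSACC, a gene on the opposite strand with 28 and 39 counts in shNUP153 and 23 and 32 in shControl. CCT4 shares 9.88% of its runs with the antisense gene AC107081.2, which had 2 and 3 counts in shNUP153 and 0 and 1 in shControl. The counts of all these partners were small beside those of the subunit, which does not show how shared reads were assigned or whether they were dropped. Over all other genes, the shared runs made up 54.5% for CCT5 and 37.9% for TCP1, so the subunits differ in this respect. Any effect of this on the levels per kilobase and the shares compared between subunits was not tested.

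Of the paralogs, CCT6B, the testis-type counterpart of CCT6A, was low, with 79 and 36 counts in shNUP153 and 46 and 53 in shControl (log2 fold change 0.18, SE 0.27, adjusted p = 0.653). CCT8L2 had 0 counts in all libraries and CCT8L1P had 0 and 3 counts in shNUP153 and 0 in shControl. The chaperonin-like genes of Bardet-Biedl syndrome, whose products help to build the BBSome, were measured as well. BBS10 averaged 18.2 ± 0.148 CPM in shNUP153 and 21.6 ± 2.33 CPM in shControl (adjusted p = 0.0437), a call that was lost under 8 alternatives (adjusted p = 0.0547 to 0.367). BBS12 (−0.22, adjusted p = 0.455) and MKKS (−0.07, adjusted p = 0.524) did not pass the test. Of 23 paralogs and pseudogenes listed, 19 were in the table, 7 were tested, 1 was lower and 0 were higher, beside 17.4% of all tested genes called lower and 15% called higher.

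The expressed genes on either side of CCT8 did not pass the test. USP16, a deubiquitinase gene 1.3 kb from CCT8 in GENCODE, measured 41.4 and 41.3 CPM in shNUP153 and 45.4 and 43.1 CPM in shControl (log2 fold change −0.10, edgeR adjusted p = 0.304). BACH1, a heme-regulated repressor gene 120.3 kb away on the other side, measured 17.8 and 16.9 CPM in shNUP153 and 18.5 and 16.7 CPM in shControl (−0.01, adjusted p = 0.946). Both were chosen, as the nearest genes of at least 5 CPM, after their values were seen. By the same rule 14 genes flank the other subunits, of which 3 were lower and 2 higher. These counts were near the shares over all tested genes, 17.4% lower and 15% higher. The lower 3 were CMBL (−0.44, adjusted p = 4.55e-09) and ATPSCKMT beside CCT5, and ALMS1, 132.7 kb from CCT7 (−0.32, adjusted p = 0.00268). The higher 2 were SUMF2 beside CCT6A (0.32, adjusted p = 2.78e-05) and C1orf61, 36.4 kb from CCT3 (0.40, adjusted p = 0.0238). ALMS1 missed the threshold when replicate 1 of either group was left out (adjusted p = 0.131 for shNUP153 and 0.124 for shControl). C1orf61 missed it with DESeq2 (adjusted p = 0.126) and when shNUP153 replicate 2 (0.436) or shControl replicate 1 (0.0562) was left out. Of the genes starting within 1000 bases of a subunit's start, MRPL18, which faces TCP1 across 63 bases and codes for a mitochondrial ribosomal protein, stood at −0.12 (adjusted p = 0.0977). PSPH, the last enzyme of serine synthesis, faces CCT6A across 26 bases and stood at −0.08 (adjusted p = 0.371). COMMD1 beside CCT4 (0.12, adjusted p = 0.443) and PRADC1 beside CCT7 (−0.11, adjusted p = 0.407) did not pass either. ATPSCKMT, which faces CCT5 across 24 bases, was lower, at 14.3 and 13.3 CPM in shNUP153 and 18.6 and 16.5 CPM in shControl (−0.34, SE 0.10, adjusted p = 0.00749). Its call was lost without shControl replicate 1 (adjusted p = 0.0676), without shNUP153 replicate 2 (0.112) and with DESeq2 (0.0557).

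Among 11021 other genes with a mean of at least 5 CPM, the 5 closest to CCT8 by the Euclidean distance of centred log2 CPM over the 4 libraries included CIAO2A, FUT8, DPYD and GNG4. CIAO2A, of the cytosolic iron-sulfur assembly machinery, measured 32.0 and 34.9 CPM in shNUP153 and 75.6 and 71.1 CPM in shControl (distance 0.051). FUT8, the fucosyltransferase of N-glycan cores, measured 87.3 and 90.6 CPM in shNUP153 and 188 and 183 CPM in shControl (distance 0.058). The genes closest to the mean of the other 7 subunits were PDE12, TIMM10, BNIP1, CD164 and NUP35, at distances of 0.006 to 0.012 and log2 fold changes between −0.16 and −0.15. With 4 libraries in 2 groups, likeness of this kind mostly says that the difference between the groups is of like size.

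None of the tested co-chaperones of CCT was lower in shNUP153 at the threshold. Prefoldin binds nascent actin and tubulin and passes them to CCT, and phosducin-like proteins act as its co-chaperones. Of 13 such genes 12 were tested, 2 were higher and 0 were lower, with a median log2 fold change of 0.01 (0.01 over all tested genes, of which 15% were called higher and 17.4% lower). PFDN2, a prefoldin subunit, averaged 81.7 ± 2.18 CPM in shNUP153 and 68.4 ± 4.42 CPM in shControl (SD, n = 2 each; log2 fold change 0.25, edgeR adjusted p = 0.000944, and 0.0691 without shNUP153 replicate 1). PDRG1, a prefoldin-like gene, averaged 50.1 ± 0.804 CPM in shNUP153 and 42.8 ± 0.648 CPM in shControl (0.23, adjusted p = 0.00676, but 0.123 without shNUP153 replicate 1 and 0.0624 without shNUP153 replicate 2). VBP1 (−0.11, adjusted p = 0.13) and URI1 (−0.11, adjusted p = 0.179) did not pass. PDCL3, a phosducin-like partner of CCT, was at 0.02 (adjusted p = 0.893).

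The clients that CCT folds moved both ways. Of 18 tubulin and actin family genes 17 were tested, 6 were lower and 3 were higher (median −0.07), beside 17.4% lower and 15% higher over all tested genes. With total-count scaling 4 were lower and 4 higher. With only genes of at least 5 CPM on average, 6 were lower and 3 higher, beside 2498 lower and 2391 higher of 11028 genes. The β-tubulin gene TUBB fell to 806 ± 0.668 CPM in shNUP153, against 1168 ± 43.4 CPM in shControl (−0.54, SE 0.042, adjusted p = 1.341e-12), and the α-tubulin gene TUBA1B to 168 ± 7.23 CPM in shNUP153, against 225 ± 7.20 CPM in shControl (−0.42, adjusted p = 1.9e-08). The β-actin gene ACTB fell to 4062 ± 36.6 CPM in shNUP153, against 4779 ± 187 CPM in shControl (−0.23, adjusted p = 1.01e-05). TUBA1A rose to 10.9 ± 1.57 CPM in shNUP153, against 6.05 ± 0.200 CPM in shControl (0.85, adjusted p = 4.71e-06). Tubulin and actin genes are close paralogs, so reads could have been divided between them. Of the tubulin cofactors and related genes, 7 were listed and 6 tested, with a median of −0.01. In this list 1 was lower (TBCD, −0.25, adjusted p = 0.00019) and 1 higher (TBCEL, 0.26, adjusted p = 0.0412). These counts were near the 17.4% lower and 15% higher of all tested genes. The call for TBCEL was lost under 5 alternatives (adjusted p = 0.097 to 0.273).

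Among WD40-repeat and other reported clients 11 of 22 fell and 3 rose (median −0.12), beside 17.4% lower and 15% higher over all tested genes. With only genes of at least 5 CPM on average, 8 of the 22 fell and 3 rose, beside 2498 lower and 2391 higher of 11028 genes. GNB4, a G protein β subunit gene, fell to 36.9 ± 2.09 CPM in shNUP153, against 79.3 ± 10.0 CPM in shControl (−1.10, SE 0.072, adjusted p = 1.19e-14), a log2 fold change near that of CCT8. MLST8, a subunit of the mTOR complexes, fell by 0.31 on the log2 scale (adjusted p = 4.79e-05), the cyclin gene CCNE1 by 0.49 (adjusted p = 5.29e-05) and the COP9 signalosome gene COPS3 by 0.28 (adjusted p = 0.000256). With total-count scaling 6 of the 22 fell and 3 rose. The count was 4 lower and 2 higher without shNUP153 replicate 1, and 7 lower and 0 higher without shNUP153 replicate 2.

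**Figure D4:**
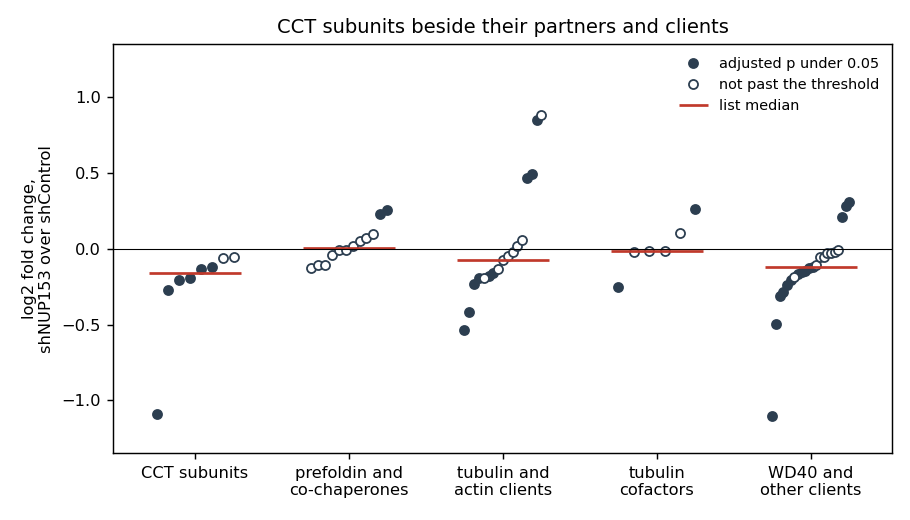
Log2 fold change, shNUP153 over shControl, of each tested gene in 5 lists, as filled points past an adjusted p of 0.05 and open points otherwise, with list medians as red lines. CCT8 (−1.09) and the client GNB4 (−1.10) lie apart from the other genes of their lists, and the prefoldin list centres on 0.01.

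In mitochondria the chaperonin role belongs to HSPD1 (HSP60) with its lid HSPE1. HSPD1 fell to 1072 ± 18.5 CPM in shNUP153, against 1356 ± 43.1 CPM in shControl (SD, n = 2 each; −0.34, SE 0.041, edgeR adjusted p = 3.93e-08), and HSPE1 was at −0.06 (adjusted p = 0.571). HSF1, the main transcription factor of the heat shock response, rose to 90.4 ± 1.06 CPM in shNUP153, against 75.4 ± 3.39 CPM in shControl (0.26, adjusted p = 0.000416), while HSF2 (−0.01, adjusted p = 0.948) and HSBP1 (0.0001, adjusted p = 0.999) did not pass. As a share of all counts the 8 CCT subunits took 0.368% and 0.369% in the shNUP153 libraries and 0.402% and 0.401% in the shControl libraries.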

How the data were processed

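RNA sequencing of TE5 cells, 2 shNUP153 and 2 shControl libraries, was analysed from 1 deposited table of 56657 rows. Although the table is named for FPKM, the deposited columns hold whole numbers with unequal library totals and were used as raw counts. The table's log2 ratio is the authors' deposited value. Per the submitters' processing notes, Bowtie2, deepTools, DESeq2 and kallisto were used, with the build hg19. The tool behind the counts is not given in the sources.

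The 45 repeated gene IDs were summed. Genes were kept by filterByExpr (minimum count 10, minimum total 15), scaled by TMM and tested with edgeR 4.0.16 in R 4.3.3 (quasi-likelihood, two-sided, Benjamini-Hochberg over 16817 genes, threshold 0.05), with 2 residual degrees of freedom per gene and spread pooled across genes. The SE is the log2 fold change divided by the root of F. The procedure was tested on simulated data. Replicates differed by more than sampling noise (chi-square per gene 3.09 in shNUP153 and 3.57 in shControl, where sampling alone gives about 1).

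Named genes were the subunits, NUP153, up to 4 members with the smallest p in each list, sequence relatives, neighbours and the 5 genes most like CCT8 and most like the other 7. Chosen after seeing values were the markers of the cell type check, PDCL3, USP16, BACH1 and the other flanking genes. Some genes that this rule names are not reported here. Subunits and lists were chosen with earlier results of these data known, and TBCE and 4 listed pseudogenes or paralogs were not analysed here. Transcript lengths and neighbours came from GENCODE release 29 (GRCh38), promoters from RefSeq (GRCh38.p14). The alternatives were RLE, total-count and upper-quartile scaling, DESeq2 1.42.0, limma 3.58.1 (prior count 2), no filter, a mean of at least 5 CPM, a replicate block, coding length and leaving out each library.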

Additional observations from a re-analysis of the deposited data

How the results depend on the processing

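CCT8 kept its direction under all 12 alternatives to the main fit, with a log2 fold change from −1.16 to −1.04 without one library and −1.03 with total-count scaling. Its difference from the median of the other 7 subunits was −1.03 to −0.89 when 1 shNUP153 library was left out. Under the alternative fits that kept every library, CCT2, CCT4 and CCT5 stayed past the threshold, and the number of subunits called was 4 to 6. Since the subunits were chosen on this comparison, nothing is read from these calls. All tested genes gave 5448 calls, 46.3% of them higher (62.8% with total-count scaling, 57.6% with upper-quartile scaling), 3556 with DESeq2, and 3072 to 5201 without one library. Without one library the prefoldin list had 0 to 2 calls, the tubulin cofactors 1 to 2 and the WD40 list 6 to 14. The tubulin cofactors had 1 call with DESeq2 and 1 with no filter on low counts, and the WD40 list had 9 with total-count scaling. The CCT8 share of the summed level in shNUP153 was 3.70% per coding length, a change that comes from the lengths used. Replicate numbers are shared between groups, but same-numbered libraries did not deviate together (correlation of deviations −0.004), and with the replicate block as a term 6 subunits were called and CCT8 stood at −1.09. Other causes were not tested. With 2 libraries per group, differences as small as the 1.04-fold to 1.21-fold of the other 7 subunits are at the limit of these data.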
